A study of Danio rerio with 13 samples.

Results

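The E proteins and their Id inhibitors were followed across leukemias of the zebrafish line rag2:hMYC;lck:eGFP, in which human MYC is driven by the rag2 promoter and eGFP by the lck promoter. The gene set holds the E protein genes tcf3a, tcf3b, tcf12 and tcf4 and the Id genes id1, id2a, id2b and id3, and members were found by symbol in any letter case. Of these 8 genes, 7 were matched to a single identifier among the 32105 in the count table, 3 of 4 E protein genes and 4 of 4 Id genes, and tcf4 was not analysed here. The identifier of id2a is named ID2 in the gene name table and was matched through its RefSeq synonym.

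Each of the 13 libraries came from GFP-positive cells sorted from the whole body of a fish with acute lymphoblastic leukemia, and all fish carried both transgenes. There was no control group, and the age and sex of the fish are not given in the sources used here. The rag2 promoter is active in immature lymphocytes and the lck promoter chiefly in T cells, so the sort can hold any cell in which the lck reporter was on. The sample descriptions carry a letter, d for 6 libraries and c for the others, whose meaning is not stated. The column of hMYC-1 was left out of the main fits. Its total of 51808498 counts lay close to the 51478946 counts of hMYC-10 to hMYC-14 together. Of 11072 genes with modest counts in that sum (10 or more, high sums left out), only 1.45% had fewer counts in hMYC-1. This share does not cover genes with high counts in the sum. The column was not the plain sum for every gene. rag1 had 266447 counts in hMYC-1 against 396988 in the sum, and cd79a 3951 against 1071. The 12 libraries used here, 6 of each letter, held 8166453 to 12297780 counts. Each is 1 leukemia, so a level carries counting error but no spread of its own, and p-values measure the spread between leukemias.

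E proteins are basic helix-loop-helix transcription factors that bind E-box DNA as dimers and drive early B and T cell development, including the genes of the antigen receptors. Id proteins have the helix-loop-helix part but no basic DNA-binding part, so that an E protein paired with an Id protein cannot bind DNA. In developing lymphocytes Id3 is a known target of antigen receptor signals, and the balance of E and Id proteins helps to set lineage and growth. cd79a, a signalling chain of the B cell receptor, and rag1, the catalytic recombinase of antigen receptor genes, were the genes against which the members were set.

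id3 was the member that varied most, over 117-fold, and it was high in the leukemias with high cd79a. id2b rose with cd79a over a smaller range. Against rag1, id3, id2b and tcf12 fell and tcf3b rose. Without hMYC-3, hMYC-4 and hMYC-5, the 3 leukemias with the most cd79a and the least rag1, id3 with cd79a was the one member call left. Calls were lost over all genes there. The fit on cd79a called 58 of 15494 genes as positive and 0 as negative, against 1326 and 589 of 14797 over 12 libraries. The fit on rag1 called 0 of 15494. In that setting the slope of id2b on cd79a was 0.228, against 0.344 over 12 libraries. With rag1 in the same fit over 12 libraries it was 0.19 (edgeR adjusted p = 0.819). Without those 3 leukemias the slopes of id3 and id2b on rag1 were no nearer to 0 than over 12 libraries, but neither passed the test. They were -1.8 ± 0.513 and -0.508 ± 0.462 (SE, 9 libraries). The slopes of tcf12 and tcf3b on rag1 were nearer to 0, at -0.192 ± 0.406 and -0.0134 ± 0.199 (SE), and that of tcf3b had changed sign. With cd79a in the same fit over 12 libraries, the slope of id3 on rag1 changed sign, from -0.923 to 0.295 ± 0.188 (SE; edgeR adjusted p = 0.74). That of id2b went from -0.4 to -0.199 ± 0.188 (SE; edgeR adjusted p = 0.878). cd79a and rag1 ran against each other over these libraries (r = -0.857), so a fit with both separates their slopes poorly. tcf3a was nearly level, and id1 and id2a passed the test with neither gene. Levels below are log2 CPM, the log2 of a count scaled to the TMM-normalized size of its library, after a prior count of 2 is added. They are compared between libraries for 1 gene and not between genes, because no transcript length was used here. In sorted bulk samples, fewer cells of a type and less RNA per cell cannot be told apart.

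**Figure D1:**
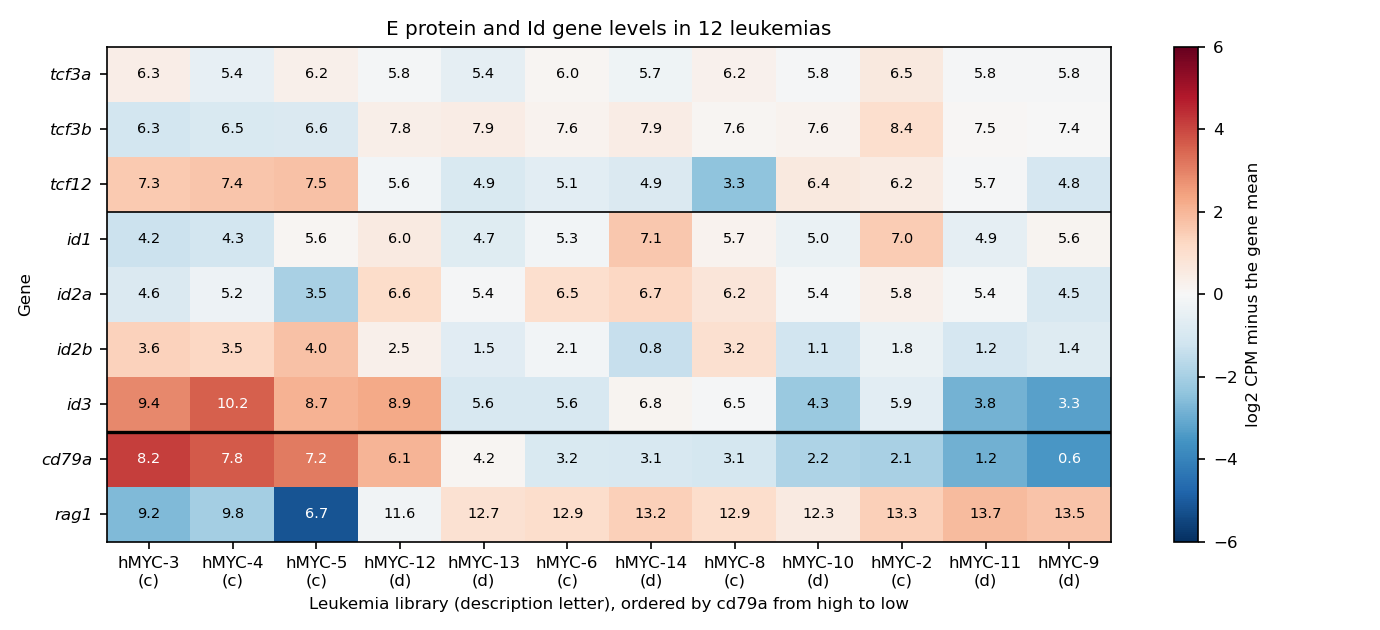
Log2 CPM of the 7 members and of cd79a and rag1 (rows) in 12 leukemia libraries (columns, with the description letter, ordered from high to low cd79a). Colour is the difference from the gene's mean in log2 units and the printed number is the level. The row of id3 runs from 10.2 in hMYC-4, toward the high end of cd79a, to 3.3 in hMYC-9 at its low end, while the row of tcf3a hardly changes colour.

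tcf3a (ENSDARG00000005915) and tcf3b (ENSDARG00000099999) are the zebrafish counterparts of TCF3, the E protein most studied in B cell precursors. tcf3a had 5.83, 5.83, 5.85, 5.80, 5.38 and 5.67 log2 CPM in the d libraries hMYC-9 to hMYC-14, and 6.48, 6.33, 5.40, 6.22, 6.03 and 6.16 in the c libraries hMYC-2, hMYC-3, hMYC-4, hMYC-5, hMYC-6 and hMYC-8. All of these lie within a 2.13-fold range, with hMYC-13 lowest and hMYC-2 highest, and the letters overlap. The mean was 5.92 ± 0.34 (SD, n = 12), and only 19.0% of the 13663 genes that passed the expression filter had a smaller SD.

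tcf3b had 7.42, 7.64, 7.47, 7.79, 7.86 and 7.89 log2 CPM in hMYC-9 to hMYC-14, and 8.42, 6.33, 6.50, 6.56, 7.62 and 7.56 in hMYC-2, hMYC-3, hMYC-4, hMYC-5, hMYC-6 and hMYC-8. The libraries hMYC-3, hMYC-4 and hMYC-5 stood apart below all others, across a gap of 0.411 of the whole range. They are also the 3 libraries with the highest cd79a and the lowest rag1. The mean was 7.42 ± 0.64 (SD, n = 12), and the highest level was 4.26-fold the lowest. Within a library the count of tcf3b was 2.65 to 5.57 times that of tcf3a in the other 9 libraries, and 1, 2.14 and 1.26 times that of tcf3a in hMYC-3, hMYC-4 and hMYC-5.

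tcf12 (ENSDARG00000004714), which encodes the E protein also called HEB and is best known from thymocytes, had 4.77, 6.36, 5.71, 5.58, 4.86 and 4.91 log2 CPM in hMYC-9 to hMYC-14. In hMYC-2, hMYC-3, hMYC-4, hMYC-5, hMYC-6 and hMYC-8 it had 6.23, 7.31, 7.40, 7.51, 5.14 and 3.33. It was highest in the same 3 libraries in which tcf3b was lowest, and lowest in hMYC-8, where it had 121 counts. The range was 18.2-fold and the mean 5.76 ± 1.26 (SD, n = 12). The count of tcf12 was 1.97, 1.87 and 1.94 times that of tcf3b in hMYC-3, hMYC-4 and hMYC-5, and 0.0522 to 0.413 times that of tcf3b in the other 9 libraries. The ratio is of counts within 1 library and is not corrected for transcript length, so only its change between libraries can be read.

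Among the inhibitors, id3 (ENSDARG00000054823) had 3.31, 4.34, 3.75, 8.87, 5.63 and 6.77 log2 CPM in hMYC-9 to hMYC-14, and 5.94, 9.45, 10.18, 8.68, 5.61 and 6.53 in hMYC-2, hMYC-3, hMYC-4, hMYC-5, hMYC-6 and hMYC-8. In counts this is 122 in hMYC-9 and 12887 in hMYC-4. The 4 libraries hMYC-3, hMYC-4, hMYC-5 and hMYC-12 were high, at 8.68 or more, and the others lay at 6.77 or less. The mean was 6.59 ± 2.27 (SD, n = 12). The highest level was 117-fold the lowest, and 96.2% of filtered genes had a smaller SD. The median SD was 0.95 over the 7 members and 0.56 over the filtered genes. The letters overlap.

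id2b (ENSDARG00000029544), 1 of the 2 zebrafish counterparts of ID2, was the member with the fewest counts. It had 1.45, 1.07, 1.22, 2.53, 1.53 and 0.84 log2 CPM in hMYC-9 to hMYC-14, and 1.82, 3.60, 3.47, 3.97, 2.06 and 3.17 in hMYC-2, hMYC-3, hMYC-4, hMYC-5, hMYC-6 and hMYC-8. It was high in hMYC-3, hMYC-4, hMYC-5 and hMYC-8. Its lowest level rests on 17 counts in hMYC-14 and its highest on 183 counts in hMYC-5. The log2 CPM levels, which include the prior count, span an 8.80-fold range. CPM without the prior count was 1.6 in hMYC-14 and 15.5 in hMYC-5. The exact 95% Poisson interval of the 17 counts was 9.9 to 27.2, which covers counting error only.

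id2a (ENSDARG00000055283) and id1 (ENSDARG00000040764) had another pattern. id2a had 4.52, 5.37, 5.39, 6.58, 5.42 and 6.74 log2 CPM in hMYC-9 to hMYC-14, and 5.81, 4.62, 5.20, 3.53, 6.49 and 6.20 in hMYC-2, hMYC-3, hMYC-4, hMYC-5, hMYC-6 and hMYC-8. It was lowest in hMYC-5, the library in which id2b was highest, and highest in hMYC-14, in which id2b was lowest. id1 had 5.59, 5.03, 4.92, 5.98, 4.73 and 7.08 log2 CPM in hMYC-9 to hMYC-14, and 6.97, 4.17, 4.32, 5.58, 5.29 and 5.66 in hMYC-2, hMYC-3, hMYC-4, hMYC-5, hMYC-6 and hMYC-8. It was high in hMYC-14 and hMYC-2 and low in hMYC-3 and hMYC-4. The means were 5.49 ± 0.95 for id2a and 5.44 ± 0.92 for id1 (SD, n = 12 each), and all of these levels rest on at least 134 counts. The count of id3 was 28.7, 31.8 and 36.0 times that of id2a in hMYC-3, hMYC-4 and hMYC-5, 4.92 times in hMYC-12, and 0.318 to 1.26 times in the other libraries. An id4 gene, the other known Id gene, was on the list of partners and had at most 14 counts in any library.

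To ask how the members moved with a B lineage gene, each gene of the table was fitted on the log2 CPM of cd79a with edgeR's quasi-likelihood test, with Benjamini-Hochberg adjustment over 14797 genes. cd79a itself was 0.62, 2.22, 1.22, 6.14, 4.19 and 3.14 log2 CPM in hMYC-9 to hMYC-14, and 2.15, 8.22, 7.79, 7.20, 3.17 and 3.06 in hMYC-2, hMYC-3, hMYC-4, hMYC-5, hMYC-6 and hMYC-8. Of the 7 members, 2 rose with it and 0 fell. Over all genes 1326 had a positive slope with adjusted p under 0.05, which is 8.96%, and 589 a negative one, which is 3.98%. id3 rose by 0.821 ± 0.0895 log2 units (SE, n = 12) per log2 unit of cd79a, a 1.77-fold change per doubling (edgeR adjusted p = 5.84e-05). id2b rose by 0.344 ± 0.0792, or 1.27-fold per doubling (edgeR adjusted p = 0.0123).

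The other 5 members did not pass the test. The slope of tcf12 was 0.289 ± 0.0898 (SE; edgeR adjusted p = 0.052). tcf12 passed when hMYC-2, hMYC-8, hMYC-10 or hMYC-12 was left out, with a lowest edgeR adjusted p of 0.0365. The slope of tcf3b was -0.172 ± 0.0637 (edgeR adjusted p = 0.0999), and it passed without hMYC-12 (0.0417). Those of id1, id2a and tcf3a were -0.167, -0.0831 and 0.00778, with edgeR adjusted p of 0.373, 0.706 and 0.934.

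**Figure D2:**
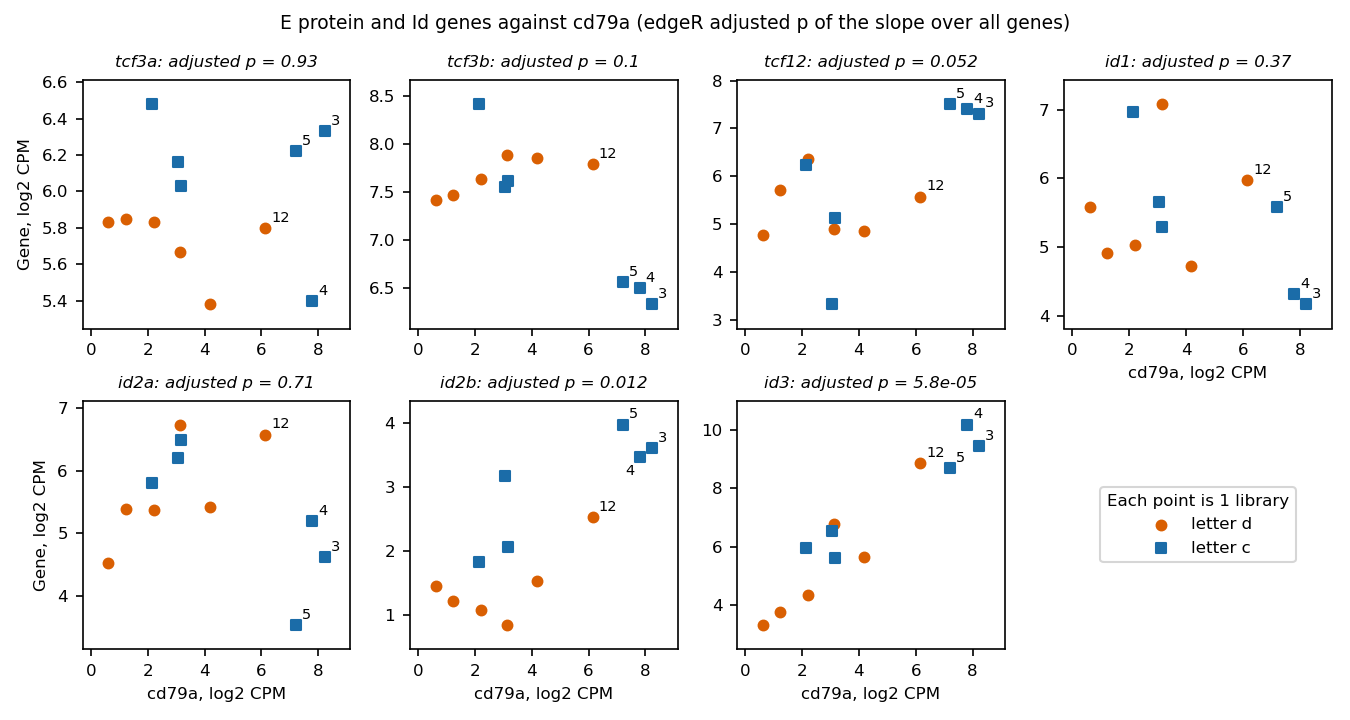
Log2 CPM of each member (vertical axes) against log2 CPM of cd79a (horizontal axes), 1 point per library, circles for letter d and squares for letter c, with hMYC-3, hMYC-4, hMYC-5 and hMYC-12 numbered. The points of id3 rise along 1 line in both letters, whereas the squares of tcf3b fall to 6.33 in hMYC-3 and its circles do not.

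The relation of id3 with cd79a also passed the test without the 3 libraries with the most cd79a. Without hMYC-3, hMYC-4 and hMYC-5 its slope was 0.957 ± 0.149 (SE, 9 libraries; edgeR adjusted p = 0.045), in a fit that called 58 of 15494 genes with a positive slope and 0 with a negative one (1434 had an unadjusted p under 0.05). No other member passed in that fit, and id2b had a slope of 0.228 (edgeR adjusted p = 0.85). In these 9 libraries id3 had r = 0.896 with cd79a (exact permutation p = 0.00178) and rho = 0.7 (exact permutation p = 0.0433). hMYC-12 was highest among them in both genes, at 6.14 log2 CPM for cd79a and 8.87 for id3. The next levels were 4.19 for cd79a in hMYC-13 and 6.77 for id3 in hMYC-14. The weight of hMYC-12 in that fit was not tested. Pearson's r of id3 with cd79a was 0.949 over 12 libraries (permutation p = 5e-05; 0.00438 after adjustment over 13662 genes) and Spearman's rho 0.86 (permutation p = 0.00072, adjusted 0.0315). Without hMYC-3 and hMYC-4, the libraries farthest from the median cd79a, r was 0.916 (permutation p = 0.00049). Within the 6 d libraries r was 0.939 (exact permutation p = 0.00694), and within the 6 c libraries 0.961 (exact permutation p = 0.0264), where 0.00139 is the smallest p that 6 libraries allow. Over all genes, 1547 of 13662 had an r with cd79a with adjusted p under 0.05, of which 830 were positive.

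For id2b, r with cd79a was 0.809 (permutation p = 0.00232, adjusted 0.0305) and rho 0.72 (permutation p = 0.011, adjusted 0.101). Without hMYC-3 and hMYC-4 it was 0.704 (permutation p = 0.0245). With 1 library left out r was 0.768 to 0.883, and its adjusted p was above 0.05 in 6 of 12 cases (without hMYC-3, hMYC-4, hMYC-5, hMYC-6, hMYC-10 or hMYC-11), at most 0.0799. It was 0.681 within the d libraries (exact permutation p = 0.136) and 0.842 within the c libraries (exact permutation p = 0.0444). In all, 14 relations of members with cd79a or rag1 were computed, and for tcf3b no pooled r is given because 3 libraries stand apart. In its other 9 libraries, tcf3b had r = 0.256 with cd79a (exact permutation p = 0.477).

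The letters were set against each other because what they stand for is not stated. Of the 4 libraries highest in cd79a, 3 carry the letter c. With the letter as a term in the fit, id3 kept a slope on cd79a of 0.798 (edgeR adjusted p = 0.00049) and id2b of 0.244 (edgeR adjusted p = 0.0426). For tcf3b the slope on cd79a was 0.1 ± 0.0561 in the d libraries and -0.311 ± 0.0402 in the c libraries. The difference of 0.411 ± 0.0681 had an unadjusted p of 9.08e-05 in edgeR, and an adjusted p of 0.394 over 16445 genes. For id2a these slopes were 0.324 ± 0.148 in the d libraries and -0.3 ± 0.106 in the c libraries, a difference of 0.624 ± 0.181 (edgeR p = 0.00554, adjusted 0.442). This test of the difference called 0 of 16445 genes, with 1625 at an unadjusted p under 0.05.

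Against rag1, the test was the same over 16445 genes. rag1 had 13.53, 12.34, 13.72, 11.61, 12.73 and 13.24 log2 CPM in hMYC-9 to hMYC-14, and 13.26, 9.17, 9.77, 6.65, 12.87 and 12.89 in hMYC-2, hMYC-3, hMYC-4, hMYC-5, hMYC-6 and hMYC-8. It was low in hMYC-3, hMYC-4 and hMYC-5, and it ran against cd79a over the 12 libraries (r = -0.857, permutation p = 0.0003, adjusted 0.01; rho = -0.895, permutation p = 0.00017, adjusted 0.0194). Without hMYC-3 and hMYC-4 this r was -0.817 (permutation p = 0.0006). Within the 6 d libraries it was -0.83 (exact permutation p = 0.0403), and within the 6 c libraries -0.873 (exact permutation p = 0.0736). Both fits use the same libraries, so their slopes are given side by side and are not independent.

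Of the 7 members, 1 rose with rag1 and 3 fell. Over all genes 820 had a positive slope, which is 4.99%, and 1444 a negative one, which is 8.78%. tcf3b rose by 0.239 ± 0.0615 log2 units (SE, n = 12) per log2 unit of rag1 (edgeR adjusted p = 0.0206). id3 fell by 0.923 ± 0.23 (edgeR adjusted p = 0.0175), tcf12 fell by 0.407 ± 0.0996 (edgeR adjusted p = 0.0162) and id2b fell by 0.4 ± 0.0953 (edgeR adjusted p = 0.014). The slopes of id2a, id1 and tcf3a, which did not pass, were 0.32, 0.164 and -0.0263, with edgeR adjusted p of 0.102, 0.404 and 0.776.

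**Figure D3:**
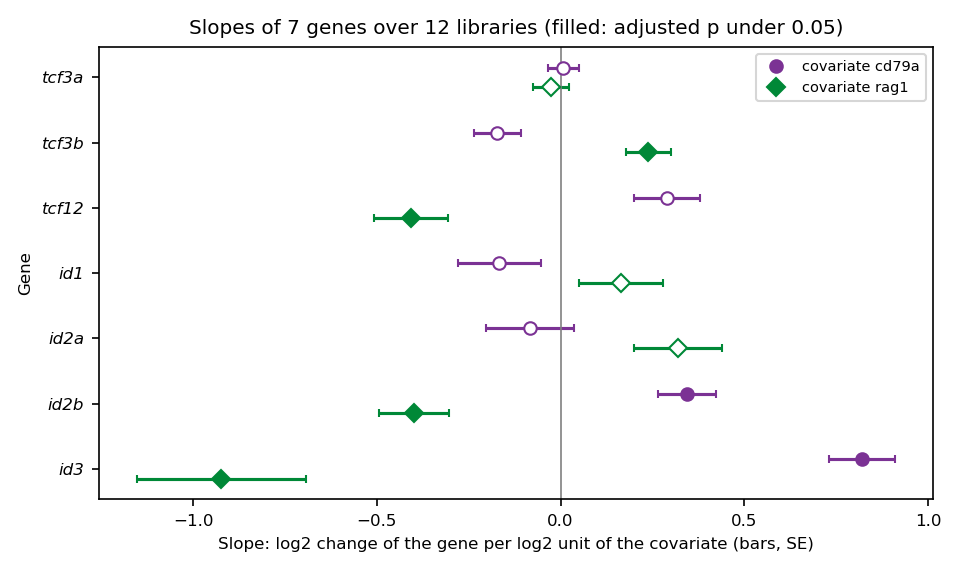
Slopes of the 7 members (rows) over 12 libraries, as log2 change per log2 unit of cd79a (circles) or rag1 (diamonds), with bars of 1 SE. Filled symbols mark an edgeR adjusted p under 0.05. id3 lies farthest from 0 on both, at 0.821 for cd79a and -0.923 for rag1.

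Without hMYC-3, hMYC-4 and hMYC-5 the fit on rag1 called 0 of 15494 genes in either direction (907 had an unadjusted p under 0.05), so none of these 4 calls was left. The slopes of id3 and id2b were -1.8 ± 0.513 and -0.508 ± 0.462 (SE, 9 libraries; edgeR adjusted p of 0.51 and 1), no nearer to 0 than over 12 libraries. Those of tcf12 and tcf3b were nearer to 0, at -0.192 ± 0.406 and -0.0134 ± 0.199 (edgeR adjusted p of 1 and 1). In these 9 libraries id3 had r = -0.679 with rag1 (exact permutation p = 0.0454; rho = -0.467, exact permutation p = 0.213). No single library left out ended the call of id3 or tcf12 (highest edgeR adjusted p of 0.0493 and 0.0478). With the letter as a term, tcf3b alone passed among the members (slope 0.247, edgeR adjusted p = 0.0436), and id3, id2b and tcf12 had edgeR adjusted p of 0.0745, 0.0707 and 0.0992. Leaving out hMYC-3 or hMYC-5 ended the call of tcf3b (edgeR adjusted p of 0.0717 and 0.0533), and leaving out hMYC-5 ended that of id2b (0.0533). Without hMYC-9, id2a was called as well (edgeR adjusted p = 0.0336).

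In correlations with rag1 over 12 libraries, id3 had r = -0.755 (permutation p = 0.00284, adjusted 0.0302) and rho = -0.727 (permutation p = 0.00999, adjusted 0.126). id2b had r = -0.826 (permutation p = 0.00052, adjusted 0.0128) and rho = -0.706 (permutation p = 0.0135, adjusted 0.141). tcf12 had r = -0.747 (permutation p = 0.00402, adjusted 0.0376) and rho = -0.629 (permutation p = 0.0334, adjusted 0.203). No rho of a member passed the adjusted threshold. Over all genes, 1668 of 13662 had an r with rag1 with adjusted p under 0.05, and only 124 had such a rho. With 1 library left out, the adjusted p of r was above 0.05 for tcf12 in 8 of 12 cases (without hMYC-3, hMYC-4, hMYC-5, hMYC-6, hMYC-9, hMYC-12, hMYC-13 or hMYC-14), at most 0.118. For id3 it was so in 5 of 12 cases (without hMYC-3, hMYC-4, hMYC-6, hMYC-9 or hMYC-11), at most 0.0857, and for id2b in 1 (without hMYC-5), at 0.0662. r itself lay between -0.83 and -0.703 for tcf12, -0.848 and -0.711 for id3, and -0.914 and -0.783 for id2b. Without hMYC-3 and hMYC-5, r was -0.832 for id3, -0.687 for id2b and -0.59 for tcf12 (permutation p = 0.00295, 0.0236 and 0.0898). Within the 6 d libraries r was -0.728 for id3, -0.675 for id2b and -0.398 for tcf12 (exact permutation p = 0.0986, 0.139 and 0.422). Within the 6 c libraries it was -0.789, -0.855 and -0.751 (exact permutation p = 0.0972, 0.0278 and 0.0889). For tcf3b in its 9 other libraries r was -0.0928 (exact permutation p = 0.799).

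For id2a the sign of r with rag1 differed between the letters, but the difference in slope did not pass after adjustment. Its pooled r of 0.652 (permutation p = 0.0214, adjusted 0.114; rho = 0.329, permutation p = 0.297, adjusted 0.563) dropped to 0.0335 (permutation p = 0.929) without hMYC-3 and hMYC-5. It was -0.463 in the 6 d libraries (exact permutation p = 0.36) and 0.961 in the 6 c libraries (exact permutation p = 0.00833). The slopes on rag1 differed by -0.845 ± 0.343 between d and c (edgeR p = 0.0318, adjusted 0.882), and this test called 0 of 16445 genes, with 895 at an unadjusted p under 0.05. hMYC-3, hMYC-4 and hMYC-5, the libraries with the least rag1, all carry the letter c. The letter therefore cannot be told apart from these libraries here. Without them the slope of id2a on rag1 was -0.386 ± 0.347 (SE, 9 libraries).

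With cd79a and rag1 in 1 fit, id3 was the one member that passed with cd79a (slope 1.03 ± 0.17, edgeR adjusted p = 0.0296), and no member passed with rag1. Over all genes, far fewer passed in this fit than with cd79a or rag1 alone, and the counts are given with the alternatives below. The slope of id3 on rag1 in that fit was 0.295 ± 0.188 (SE; edgeR adjusted p = 0.74), and that of id2a was 0.7 ± 0.158 (SE; edgeR adjusted p = 0.0929). Because cd79a and rag1 ran against each other (r = -0.857), this fit separates their slopes poorly. rag2, the partner subunit of the recombinase, had only a 3.04-fold range over the libraries. With rag2 in place of rag1, 0 members and 0 genes in all passed the test.

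Between the letters no member passed. Over all genes 15 of 13663 were higher in d, which is 0.11%, and 32 were lower, which is 0.234%, with 2794 at an unadjusted p under 0.05. id2b averaged 1.44 ± 0.59 log2 CPM in the d libraries and 3.01 ± 0.88 in the c libraries (SD, n = 6 each), with a fitted difference of -1.76 ± 0.445 (edgeR adjusted p = 0.1). DESeq2 called this difference (-1.77, DESeq2 adjusted p = 0.00524). id3 averaged 5.45 ± 2.11 in the d libraries and 7.73 ± 1.95 in the c libraries (SD, n = 6 each; fitted difference -1.88 ± 1.1, edgeR adjusted p = 0.354). tcf12 averaged 5.37 ± 0.63 in the d libraries and 6.15 ± 1.66 in the c libraries (SD, n = 6 each; edgeR adjusted p = 0.233). tcf3a averaged 5.73 ± 0.18 in the d libraries and 6.10 ± 0.37 in the c libraries (SD, n = 6 each; edgeR adjusted p = 0.171). For tcf3b, id1 and id2a the fitted differences were 0.24, 0.09 and 0.225 (edgeR adjusted p of 0.742, 0.945 and 0.839). The letters overlapped for all 7 members. With library totals in place of TMM factors the median difference of all genes was 0.0974, against -0.0247 with TMM, so these small differences move with the scaling.

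Among the 21 pairs of members, id3 with id2b had an r of 0.791 (permutation p = 0.00328) and a rho of 0.685 (permutation p = 0.0173). Adjusted over all genes, the p of this r was 0.0379 among the relations of id3 and 0.0569 among those of id2b, and that of rho was 0.107 and 0.143. Without hMYC-3 and hMYC-4 r was 0.681 (permutation p = 0.0301), and it was 0.594 in the 6 d libraries (exact permutation p = 0.208) and 0.822 in the 6 c libraries (exact permutation p = 0.0514). No other pair passed after adjustment. Over all genes, 1501 of 13662 had an r with id3 with adjusted p under 0.05, and 635 had one with id2b. With tcf3a, tcf12, id1 or id2a 0 genes did, so the lack of a call among those members is shared by all genes. The 6 pairs with tcf3b are given only for the 9 libraries that do not stand apart. There r lay between -0.0385 with id2b (exact permutation p = 0.92) and 0.653 with id1 (exact permutation p = 0.0538). The inhibitor id2a with id3 had r = -0.0973 over all 12 libraries (permutation p = 0.762, adjusted 0.871; rho = 0.028, permutation p = 0.937, adjusted 0.97), and 0.115 without hMYC-3 and hMYC-4. This pair had r = 0.876 in the 6 d libraries (exact permutation p = 0.0264) and -0.706 in the 6 c libraries (exact permutation p = 0.124). The count of id3 was 0.0568 to 0.49 times that of tcf3b in the 8 libraries with the least id3, 2.12 times in hMYC-12, and 8.73, 12.9 and 4.35 times in hMYC-3, hMYC-4 and hMYC-5.

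The genes most like each member were ranked by r of log2 CPM over the 12 libraries among 10834 genes with a mean of at least 2 log2 CPM, as a description of these libraries with no test. For id3 they included CXCR4 (r = 0.973, rho = 0.916; ENSDARG00000057633, 1 of 2 identifiers so named) and arhgap33 (r = 0.972, rho = 0.951). For id2b they were LMO4 (r = 0.962, rho = 0.965), ENC1 (r = 0.931, rho = 0.972) and PIK3CB (r = 0.923, rho = 0.93). For tcf12 they were rusc2 (r = 0.916, rho = 0.867), fam241a (r = 0.902, rho = 0.832) and si:ch73-57a19.4 (r = 0.89, rho = 0.783). id1 was closest to ptmab, DUSP6 and AMMECR1 (r = 0.898, 0.866 and 0.818; rho = 0.923, 0.867 and 0.727). id2a was closest to si:dkey-11c5.14, prnpb and ENSDARG00000097952 (r = 0.906, 0.892 and 0.885; rho = 0.874, 0.951 and 0.755). tcf3a was closest to ENSDARG00000102550, ANKRD12 and USP31 (r = 0.856, 0.854 and 0.85; rho = 0.86, 0.874 and 0.888). For tcf3b the leading genes were NCK1, ZAP70 and pabpc1b, with no r given because 3 libraries stand apart (rho = 0.853, 0.727 and 0.727).

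Partners of E proteins split between the directions. E proteins form complexes with the factors TAL1 and LMO2, GATA factors and corepressors of the CBFA2T family. Of 18 listed genes 14 were matched and 7 could be tested against cd79a, of which 3 rose and 2 fell. The corepressor gene cbfa2t2 rose by 1.05 ± 0.153, gata2a by 0.897 ± 0.147 and lmo2 by 0.614 ± 0.092 log2 units per log2 unit of cd79a (SE; edgeR adjusted p of 0.000549, 0.00129 and 0.000671). gata3, a factor of T cell development, fell by 0.653 ± 0.116 and cbfa2t3 fell by 0.405 ± 0.111 (edgeR adjusted p of 0.00242 and 0.0305). gata3 had 2.78 log2 CPM at its lowest, in hMYC-5, a median of 8.30 and 9.98 at its highest, in hMYC-11, whereas lmo2 was lowest in hMYC-11 at 0.45 and highest in hMYC-5 at 6.44, with a median of 3.08. Against rag1, 2 of 8 tested partners rose (gata3 and cbfa2t3) and 3 fell (cbfa2t2, gata2a and lmo2). Over all genes 8.96% rose and 3.98% fell with cd79a, and 4.99% rose and 8.78% fell with rag1. tal1, tal2 and lmo1, which are activated in some human T cell leukemias, had at most 5, 3 and 4 counts in any library. The median slope of the tested partners was -0.048 on cd79a and -0.384 on rag1, beside -0.00931 and 0.0168 over all genes tested.

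Known targets of E proteins moved in both directions. The shares over all genes were 8.96% rising and 3.98% falling with cd79a, and 4.99% and 8.78% with rag1. Of 5 tested B lineage targets other than cd79a, 3 rose with it, namely cd79b (slope 1.38 ± 0.0923), pax5 (1.29 ± 0.134) and blnk (1.24 ± 0.135), with edgeR adjusted p of 4.69e-06, 4.36e-05 and 5.88e-05. rag1 fell by 0.621 ± 0.13 and rag2 fell by 0.126 ± 0.0359 per log2 unit of cd79a (edgeR adjusted p of 0.00699 and 0.0356). Of 9 tested T lineage targets, bcl11ba fell with cd79a (-0.281 ± 0.0503, edgeR adjusted p = 0.00252), and gfi1ab (0.706 ± 0.0695) and rorca (0.803 ± 0.119) rose (edgeR adjusted p of 3.2e-05 and 0.000629). Against rag1, 5 of these 9 rose, namely tcf7 (0.845), cd8a (0.806), cd4-1 (0.749), il7r (0.624) and bcl11ba (0.309), with edgeR adjusted p of 0.00234, 0.00194, 0.000441, 0.00386 and 0.0101, and gfi1ab and rorca fell by 0.839 each (0.0041 and 0.0106). Of the 5 B lineage targets tested against rag1, 4 fell (cd79a, cd79b, pax5 and blnk, with slopes of -1.23, -1.57, -1.55 and -1.46) and 0 rose. The median slopes on cd79a were 1.24 for the B list and -0.256 for the T list, and on rag1 -1.46 and 0.309.

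**Figure D4:**
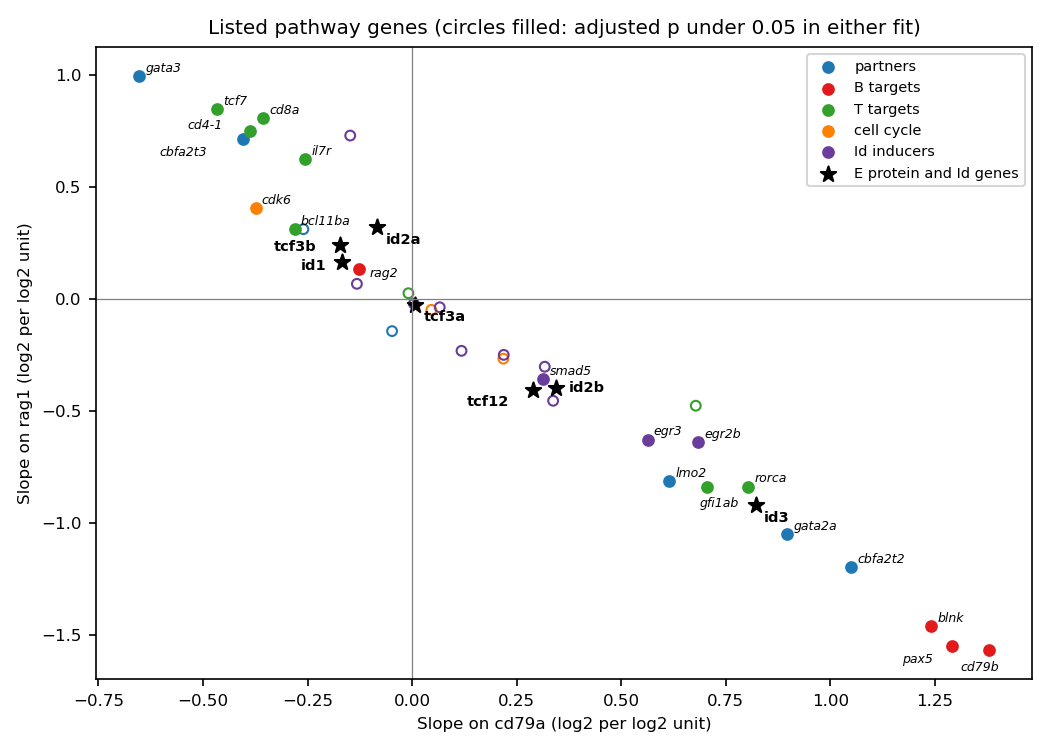
Slope on cd79a (horizontal axis) and slope on rag1 (vertical axis), both in log2 units per log2 unit, for the listed pathway genes tested in both fits (circles, coloured by list) and the 7 members (stars). Filled circles are genes with an edgeR adjusted p under 0.05 in either fit. cd79a and rag1 run against each other over the same 12 libraries, so the axes are not independent. id3 lies at 0.821 and -0.923, near gata2a and rorca, and tcf3a lies near 0 on both axes.

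Cell cycle targets and possible inducers of Id genes were read in the same fits, in which 8.96% of all genes rose and 3.98% fell with cd79a. With rag1 4.99% of all genes rose and 8.78% fell. cdk6, a cyclin-dependent kinase gene, fell by 0.374 ± 0.0772 with cd79a and rose by 0.406 ± 0.116 with rag1 (edgeR adjusted p of 0.00634 and 0.0342). It was 1 of 3 tested cell cycle genes with cd79a and, with cdkn1ca (-1.06 ± 0.23, edgeR adjusted p = 0.00891), 1 of 2 called among 4 with rag1. cdkn1ca had at most 33 counts in a library. The median slopes of these genes were 0.0459 and -0.159. Among the listed genes of the BMP, TGF-beta and early growth response pathways, some of which can raise Id genes, 3 of 11 tested rose with cd79a and 0 fell. These were egr2b (0.684 ± 0.127), egr3 (0.563 ± 0.113) and smad5 (0.314 ± 0.0903), with edgeR adjusted p of 0.00323, 0.00531 and 0.0381. The same 3 fell against rag1 (-0.639, -0.629 and -0.359; edgeR adjusted p of 0.00606, 0.00262 and 0.0411), among 12 tested. smad7 (0.337) and egr1 (0.219) did not pass with cd79a (edgeR adjusted p of 0.0645 and 0.222). The median slopes were 0.219 and -0.277. Without hMYC-3, hMYC-4 and hMYC-5, cd79b was the only gene of these 5 lists that was called with cd79a (1.65 ± 0.171, edgeR adjusted p = 0.0176), and none was called with rag1. Several slopes on cd79a were of like size in those 9 libraries, among them 1.18 ± 0.237 for blnk, 1.38 ± 0.289 for pax5, 0.762 ± 0.216 for egr2b, 0.784 ± 0.282 for rorca and 0.626 ± 0.154 for gfi1ab (edgeR adjusted p of 0.0817, 0.095, 0.205, 0.352 and 0.148). Others were nearer to 0, such as 0.299 ± 0.198 for egr3, 0.121 ± 0.201 for smad5 and -0.156 ± 0.0781 for cbfa2t3 (edgeR adjusted p of 0.786, 0.96 and 0.618).

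Marker genes of other cell types were read in the same libraries. The summed CPM of 8 B markers was 16 to 3470, highest in hMYC-3 and lowest in hMYC-11, and that of 9 T markers 417 in hMYC-5 to 8130 in hMYC-2. Some B markers had counts in every library. Most of the sum was ighm in hMYC-11 (11.7 of 16 CPM, with 0 counts of pax5) and in hMYC-14 (202 of 243 CPM). With cd79a, 5 of 6 tested B markers rose, the exception being ighm (0.252, edgeR adjusted p = 0.389). Of 9 tested T markers 3 fell with cd79a (gata3, zap70 and bcl11ba) and 8 rose with rag1, cd247l being the exception. Beside these counts, 8.96% of all genes rose and 3.98% fell with cd79a, and 4.99% rose with rag1. The sum of 5 myeloid markers was 7.76 in hMYC-10 to 411 in hMYC-5, with 323 in hMYC-3 and 348 in hMYC-4. In hMYC-5, hMYC-3 and hMYC-4 most of this sum was 1 of the 5 markers, spi1b, at 388, 274 and 294 CPM. Of these markers spi1b rose with cd79a (1.04 ± 0.109, edgeR adjusted p = 4.38e-05), and lyz, npsn, marco and csf1ra did not pass (edgeR adjusted p of 0.332, 0.431, 0.955 and 0.773). The sums were 2.56 to 150 for 4 erythroid, 5.66 to 98.4 for 5 epithelial and 0.548 to 59 for 3 pancreas markers. They were 0.763 to 5.58 for 5 endothelial, 0.676 to 4.15 for 6 stromal, 0.0814 to 3.34 for 3 muscle and 0.0814 to 1.03 for 3 thrombocyte markers. None of the markers of these other 7 lists that could be tested was called with cd79a, and every list had counts. The part of other cells in the relation of id3 or id2b with cd79a was not tested.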

How the data were processed

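RNA was measured in 13 libraries of sorted leukemia cells, with poly(A) stranded libraries made from Trizol RNA per the labels' protocols. The authors deposited raw read counts, 1 table of 32105 Ensembl identifiers and 13 columns named by sample title. Per the submitters' processing notes bcl2fastq, STAR, Picard, featureCounts and the build GRCz10 were used. The annotation, the strand setting and the handling of reads with several matches are not given in the sources used here, so counts of overlapping genes and of close copies such as tcf3a and tcf3b, or id2a and id2b, are uncertain. Symbols came from a gene name table (26269 identifiers, 81.8%) and from RefSeq synonyms of the assembly GRCz12tu. A symbol that fitted several identifiers was not used.

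The members, lists and tests were chosen with earlier results of these data known. edgeR 4.0.16 (R 4.3.3) was run on 12 libraries, 8166453 to 12297780 counts each, with TMM factors and filterByExpr. It used two-sided quasi-likelihood F tests of the slope on cd79a, on rag1, or of the letter, with Benjamini-Hochberg adjustment over all genes and a threshold of 0.05. The genes used as covariates were not counted. Pearson's r and Spearman's rho of log2 CPM (prior count 2) had two-sided permutation tests of 100000 resamples (smallest p 1e-05), exact within 6 or 9 libraries, with scipy 1.17.1. A pooled r was left out for a gene with a gap of at least 0.4 of its range between adjacent libraries.

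Genes named are all members, the list genes that passed a slope test, and the 3 genes most like each member, of which 1 is not reported here. The lists were E protein partners, B lineage, T lineage and cell cycle targets, possible Id gene inducers, and markers of 10 cell types. A few list genes that did not pass, or had few counts, are named in addition, chosen after their values were seen. Alternatives were other scaling, no filter, DESeq2 1.42.0, all 13 columns, other covariates and leaving out each library. The fits without hMYC-3, hMYC-4 and hMYC-5 and the test of slopes between letters were chosen after seeing the data. On simulated counts of 14798 genes, of which 200 were changed, the slope test on cd79a recovered 44.0% of slopes of 0.3 and 90.5% of slopes of 0.8.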

Additional observations from a re-analysis of the deposited data

Results flagged for a closer look

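Within the 6 d libraries, tcf3a was lowest in hMYC-13 at 5.38 log2 CPM, and the next level was 5.67 in hMYC-14. The gap was 0.629 of a narrow range, beside a critical value of 0.625. The same was asked of every member in both letters. Chance alone marks about 1 in 20 groups in this way, and the cause was not tested.

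Of the fits, only the alternative with all columns used the column of hMYC-1. This column held more counts than hMYC-10 to hMYC-14 together for 6 of the 7 members. The excess was 926 counts for tcf3a, 404 for tcf3b, 1976 for tcf12, 48 for id2a, 200 for id2b and 4926 for id3, against a shortfall for id1 of 7 counts. As a ratio of hMYC-1 to the sum this was 1.34 for tcf3a, 1.04 for tcf3b, 1.79 for tcf12, 1.01 for id2a, 2.38 for id2b and 1.73 for id3. The median ratio of 13023 genes with at least 100 counts in the sum was 1.15. Of those genes 2.62% had a higher ratio than id2b, 4.45% than tcf12, 4.85% than id3 and 12.2% than tcf3a. A higher ratio than tcf3b was found for 86.3%, than id2a for 90.4% and than id1 for 94.2%. The ratio of id1 was 0.998, so most of those genes also had more counts in hMYC-1 than in the sum. The ratio was 3.69 for cd79a and 0.671 for rag1.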

How the results depend on the processing

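Of 810 values recomputed under alternatives, 667 gave the same direction and the same call, or a count within 1.5 times, and 31 changed sign. id3 with cd79a passed under every alternative run (edgeR or DESeq2 adjusted p of 3.87e-19 to 0.045), and id2b with cd79a did not pass with rag1 in the fit or without hMYC-3, hMYC-4 and hMYC-5 (adjusted p of 0.000525 to 0.85). Where the cause of a change is not given by the setting itself, it was not tested.

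With 1 library left out in turn, the genes called with cd79a were 974 to 1514 positive and 210 to 665 negative (lowest without hMYC-3), with 2 to 4 members. Those called with rag1 were 343 to 876 positive (lowest without hMYC-5) and 967 to 1598 negative, with 2 to 5 members. Those called between letters were 2 to 25 higher in d and 6 to 38 lower, with 0 members. With DESeq2 4 members passed with cd79a (tcf12 and tcf3b were added). There 1370 genes were negative, against 589 with edgeR, and the positive genes stayed within 1.5 times the 1326 of edgeR. With rag1 DESeq2 called 1529 genes positive and 1966 negative, against 820 and 1444 with edgeR, and 5 members. Between letters it called 448 higher, 711 lower and 1 member, against 15 and 32 genes with edgeR. With cd79a and rag1 in 1 fit, 186 genes were positive and 3 negative on cd79a with 1 member, and 65 positive and 4 negative on rag1 with 0 members. With the letter as a term, 786 genes were negative on rag1, and the 1 member called, tcf3b, had a positive slope. With rag2 in place of rag1, 0 genes were positive, 0 negative and 0 members passed. Without hMYC-3, hMYC-4 and hMYC-5, which were chosen after seeing the data, 58 genes were positive and 0 negative on cd79a with 1 member, and 0 and 0 on rag1 with 0 members. Between letters 21 genes were lower with library totals. Without a filter 2 were higher and 5 lower, with 13 columns 0 and 0, and with cd79a as a term 1 and 6.

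Members whose value changed sign had passed no test in that setting. The slope of tcf3a on cd79a was -0.0232 to 0.0353 with 1 library left out, -0.0391 with the letter as a term, -0.0577 with rag1 in the fit and -0.0479 without the 3 libraries. On rag1 it was 0.0285 with the letter, 0.0748 with rag2 and 0.0922 without the 3 libraries. Its r with cd79a was 0.13 with library totals and -0.246 to 0.257 with 1 library left out, and its r with rag1 was -0.393 to 0.0307. With cd79a and rag1 in 1 fit, tcf12 had -0.00135 and id2a 0.391 on cd79a, and id3 0.295 on rag1. Without the 3 libraries, the slopes on cd79a were 0.0421 for tcf3b, -0.0627 for tcf12, 0.0361 for id1 and 0.315 for id2a, and on rag1 -0.0134 for tcf3b and -0.386 for id2a. Between letters, id1 had -0.401 to 0.662 with 1 library left out (lowest without hMYC-14) and -0.0453 with cd79a as a term, and id2a had -0.0386 to 0.479 (lowest without hMYC-14). No paired analysis was possible because all libraries form 1 group with a number each. At 17 to 183 counts per library, id2b is the member whose level depth limits most.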
